A study of Mus musculus with 36 samples.

Results

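Enteroendocrine cells, abbreviated EEC, are the hormone-secreting cells of the gut epithelium. They were taken here as the cells to which the authors' annotation gives the cluster name EEC. There were 80 such cells among 2614 annotated cells, 35 of them in set 1 and 45 in set 2. Both sets are 10x Genomics single-cell libraries of separated intestinal cells from the small intestine of 12-month-old wild-type mice of strain C57BL6/2J, with no treatment named. The series also holds 34 small RNA libraries of sorted epithelial populations, which were not used here. The cells set beside the EEC are the 2534 other annotated cells of the same libraries, 1109 in set 1 and 1425 in set 2, in 7 classes: secretory progenitor, goblet, Paneth, tuft, stem (ISC), progenitor and enterocyte. The labels do not give the number of mice in a set, and they do not say whether the cells of these libraries were sorted, so a share of cells can reflect how the cells were obtained.

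Enteroendocrine cells arise from crypt stem cells through a step in which the transcription factor Neurog3 is switched on briefly. Neurod1, Insm1, Nkx2-2, Pax6 and Isl1 then act in the endocrine lineage. The mature cells store peptide hormones or serotonin in dense-core granules with granins such as Chga and Chgb, and release them when nutrients or other signals reach receptors on the cell. Different cells are known for different products, among them Gip, Cck, Gcg (the precursor of GLP-1), Ghrl (ghrelin), Sst (somatostatin), Nts (neurotensin), Pyy and Sct (secretin). Enterochromaffin cells make serotonin with the enzyme Tph1, and many also make Tac1, the substance P precursor.

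The cluster names come from the same libraries, and which transcripts entered the clustering is not known here, so any gene reported may have been used. The level of a gene in EEC against other cells is therefore a description with no test, and no p-value is given. Each set is given on its own, since cells of 1 library are not replicates.

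Values are molecules counted by unique molecular identifier (UMI), as deposited. A level is the UMIs of a gene summed over the EEC of a set, as a share of all UMIs of those cells on the usual CPM scale, with an exact Poisson 95% interval. Intervals cover counting error only. The EEC summed to 544206 UMIs in set 1 and 811898 in set 2. The median cell held 11858 UMIs and 3280 genes in set 1 (8466 to 37861 UMIs) and 12685 UMIs and 3745 genes in set 2 (1835 to 96122 UMIs). EEC were shallower than enterocytes, whose median depth was 15164 UMIs in set 1 and 24698 in set 2. Mitochondrial transcripts took 4.31% of EEC UMIs in set 1 and 7.28% in set 2, and ribosomal protein transcripts 25.9% and 16.5% in that order of sets. No cell barcode occurred in both sets.

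EEC made up 3.06% of annotated cells in each set, with exact binomial 95% intervals of 2.14% to 4.23% in set 1 and 2.24% to 4.07% in set 2. Of all deposited barcodes, EEC were 2.89% of 1209 in set 1 and 0.584% of 7711 in set 2. Barcodes without annotation numbered 65 in set 1 and 6241 in set 2, where their median was 1738 UMIs.

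The promoters of 3 hormone genes that are described below are shown first, because these hormones are followed cell by cell and Neurod1, a factor that marks the cells, is known to bind E-boxes. Each line gives the 250 bases before the RefSeq transcription start, 5′ to 3′ on the strand of the gene, from assembly GRCm38.p6. Capitals mark the letters CAGATG, searched with the reverse complement CATCTG on the other strand. The windows are Gip at chr11:96024295-96024544 on the plus strand, Cck at chr9:121495695-121495944 on the minus strand and Gcg at chr2:62483654-62483903 on the minus strand.
Gip: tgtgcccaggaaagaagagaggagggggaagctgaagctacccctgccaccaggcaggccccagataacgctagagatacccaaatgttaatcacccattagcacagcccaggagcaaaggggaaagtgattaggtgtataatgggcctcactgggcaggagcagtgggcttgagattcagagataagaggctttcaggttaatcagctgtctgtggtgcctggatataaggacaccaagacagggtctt
Cck: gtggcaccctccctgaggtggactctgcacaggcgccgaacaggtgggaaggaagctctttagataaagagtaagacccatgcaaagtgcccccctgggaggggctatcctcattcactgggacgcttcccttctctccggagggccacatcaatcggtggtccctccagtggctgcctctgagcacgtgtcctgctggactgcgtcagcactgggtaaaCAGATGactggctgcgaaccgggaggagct
Gcg: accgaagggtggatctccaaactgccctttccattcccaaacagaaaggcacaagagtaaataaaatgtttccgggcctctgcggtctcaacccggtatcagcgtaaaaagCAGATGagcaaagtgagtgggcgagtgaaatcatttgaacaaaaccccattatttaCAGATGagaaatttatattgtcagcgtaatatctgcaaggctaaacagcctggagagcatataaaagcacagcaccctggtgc
The Gcg window holds the letters 2 times, with first bases 139 and 83 bases before the start, and the Cck window 1 time, 30 bases before the start. Sct also holds them 1 time, 242 bases before its start. No match was found in windows of Gip, Ghrl, Chga, Chgb or Neurod1. Of all 32851 RefSeq windows of this length, 14.4% hold the letters, and a match is a description of letters and not of binding.

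Markers of the endocrine lineage fitted the label in both sets. Chgb, a granin, stood at 2653 CPM in EEC (2518 to 2794) against 11.0 CPM in other annotated cells of set 1. In set 2 it stood at 9127 CPM in EEC (8920 to 9337) against 7.99 CPM. Chga, the granin most used as an endocrine marker, stood at 397 CPM in EEC (346 to 454) against 8.59 CPM in other cells of set 1, and at 1707 CPM in EEC (1618 to 1799) against 17.4 CPM in set 2. Neurod1 stood at 230 CPM in EEC (191 to 274) against 0.299 CPM in other cells of set 1, and at 291 CPM (255 to 330) against 0.127 CPM in set 2. At least 1 UMI of Neurod1 was found in 29 of 35 EEC and 39 of 45 EEC, and at least 1 UMI of Chgb in 27 and 42. Both granins were thus far above the other cells in each set, and they were higher in EEC of set 2 than of set 1, while Neurod1 levels of the sets had overlapping intervals.

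**Figure D1:**
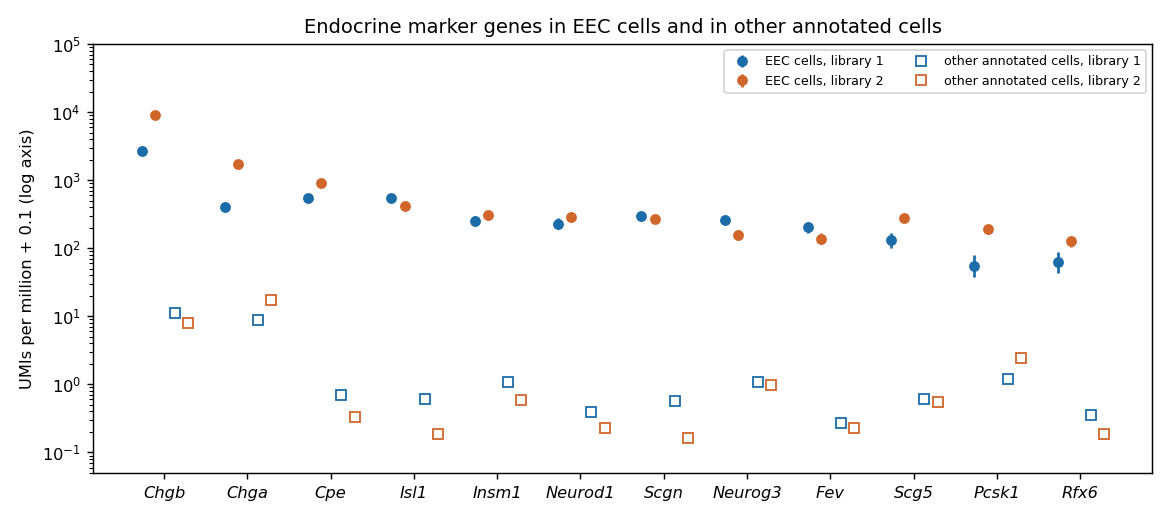
Level in CPM, plus 0.1 on a log axis, of 12 endocrine genes in EEC (filled circles, with exact Poisson 95% intervals) and in all other annotated cells (open squares), in set 1 (blue, library 1) and set 2 (orange, library 2). Each circle lies above the squares of its gene, for example Chgb at 2653 and 9127 CPM in EEC against 11.0 and 7.99 CPM.

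Over all genes, 12188 had at least 10 UMIs in each set and were compared by the log2 ratio of CPM, with 10 CPM added to each side. At least 2-fold higher in EEC in both sets were 522 genes, 4.28% of those compared, and 221 genes or 1.81% were at least 2-fold lower. The median log2 ratio of all genes was 0.22. With median-of-ratios scaling, which moved that median to -0.05, the split became 270 higher and 408 lower, so that 39.8% of the genes past the threshold were higher in place of 70.3%. These counts are the background for the lists below. The clusters may have been formed on these genes, and nothing is read from the distance of a list to the background.

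All 12 EEC markers were among the genes that were higher, with a median log2 ratio of 4.50. The markers of Paneth cells were lower in EEC in 8 of 8 cases, those of goblet cells in 7 of 8 and those of enterocytes in 7 of 9. In tuft, stem, cycling, leukocyte and endothelial lists, 0 markers were higher and 1 tuft marker was lower. The stromal markers Col1a1, Col1a2, Col3a1, Dcn and Acta2 held 0 UMIs in EEC of both sets, as did S100b, Sox10 and Gfap of enteric neurons and glia. The other neuronal markers Tubb3 and Ret were present in EEC, Ret at 14.7 CPM in set 1 and 30.8 CPM in set 2, against 0.214 and 0.297 CPM in other cells.

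Summed over their lists, the markers of other types in EEC were low but not absent. Goblet markers summed to 8313 CPM in EEC of set 1 against 182201 CPM in goblet cells, and to 3498 CPM in EEC of set 2 against 172361 CPM. In single EEC the goblet sum ran between 384 and 59452 CPM in set 1 and between 207 and 36865 CPM in set 2, so it was concentrated in some of the cells. Paneth markers summed to 3523 CPM in EEC of set 1 and 1696 CPM in set 2, against 497735 and 422852 CPM in Paneth cells. Enterocyte markers summed to 2405 and 1749 CPM in EEC, against 54199 and 23793 CPM in enterocytes. In 1 EEC of each set these markers and those of tuft cells took more than 5% of UMIs, and without those cells 500 of the 522 higher genes were still higher in EEC.

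The peptide hormones are the products by which the cells are classified. Of 19 listed hormone and peptide genes, 10 had enough UMIs to be compared, and 8 of these were higher in EEC in both sets. Gip, the incretin of K cells, stood at 35132 CPM in EEC (34636 to 35633) of set 1 and 29900 CPM (29525 to 30279) of set 2, against 24.2 and 3.69 CPM in other cells. Per EEC, the lowest, median and highest Gip counts were 0, 1 and 3880 UMIs in set 1 and 0, 0 and 3733 UMIs in set 2. The counts were uneven over cells: the 3 cells with most Gip held 55.8% of its EEC UMIs in set 1 and 44.9% in set 2.

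Cck, cholecystokinin, stood at 11518 CPM in EEC of set 1 (11234 to 11806) and 15126 CPM in set 2 (14860 to 15396), against 5.47 and 1.19 CPM in other cells. Gcg stood at 4699 CPM in EEC of set 1 (4518 to 4884) and 9452 CPM in set 2 (9242 to 9666), against 2.22 and 1.25 CPM. Ghrl stood at 8629 CPM in EEC of set 1 (8384 to 8879) and 2279 CPM in set 2 (2176 to 2385), against 21.1 and 0.827 CPM. Cck and Gcg were thus higher in EEC of set 2 and Ghrl higher in EEC of set 1, beyond counting error but with 1 library on each side and with few cells behind the levels. The 3 cells with most Gcg held 90.1% of its EEC UMIs in set 1 and 57.3% in set 2, and the 3 with most Ghrl held 88.4% and 93.4%. For Cck the top 3 cells held 67.1% in set 1 and 33.1% in set 2.

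Pyy and Nts, products of the distal gut, were mostly found in set 2. Pyy stood at 154 CPM in EEC of set 1, all from 1 cell with 84 UMIs, and at 2170 CPM in EEC of set 2, where 10 cells had at least 1 UMI. Nts stood at 5.51 CPM in EEC of set 1 and at 2653 CPM in set 2, where 1 cell held 1945 of 2154 UMIs. Sst stood at 853 CPM in EEC of set 1 from 3 cells and at 28.3 CPM in set 2 from 2 cells. These levels rest on very few cells. Gal, Iapp, Ucn3 and Gast held 1 to 6 UMIs in EEC of a set. Ppy, Insl5, Cartpt and Adm held 0 UMIs in EEC of both sets, where the limit that a count of 0 allows, taken as 3 counts over the EEC of a set, is 5.51 CPM in set 1 and 3.7 CPM in set 2. The exact Poisson interval of a count of 0 ends at 6.78 CPM in set 1 and 4.54 CPM in set 2.

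A cell was taken to hold a product at 5 or more UMIs. At 1 UMI, molecules free in the droplet suspension could count, which was not tested. Gip had at least 1 UMI in 36.0% of enterocytes of set 1 and 10.2% of set 2, but at least 5 UMIs in 0 of 406 and 0 of 488. Over all other annotated cells, 7 of 1109 in set 1, all Paneth cells, and 0 of 1425 in set 2 had at least 5 UMIs of Gip. At 5 or more UMIs, Sct was held by 27 of 35 EEC in set 1 (77.1%, exact binomial 95% interval 59.9% to 89.6%). In set 2 it was held by 36 of 45 (80.0%, 65.4% to 90.4%). Sct reached 5 UMIs in other annotated cells too, 117 of 1109 in set 1 and 249 of 1425 in set 2. Cck was held by 16 EEC in set 1 (45.7%) and 25 in set 2 (55.6%), Gip by 11 (31.4%) and 14 (31.1%), and Gcg by 5 (14.3%) and 12 (26.7%). Ghrl was held by 10 EEC in set 1 (28.6%) and 7 in set 2 (15.6%), and Tac1 by 5 (14.3%) and 13 (28.9%). The intervals of the sets overlapped for each of the 10 products followed.

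**Figure D2:**
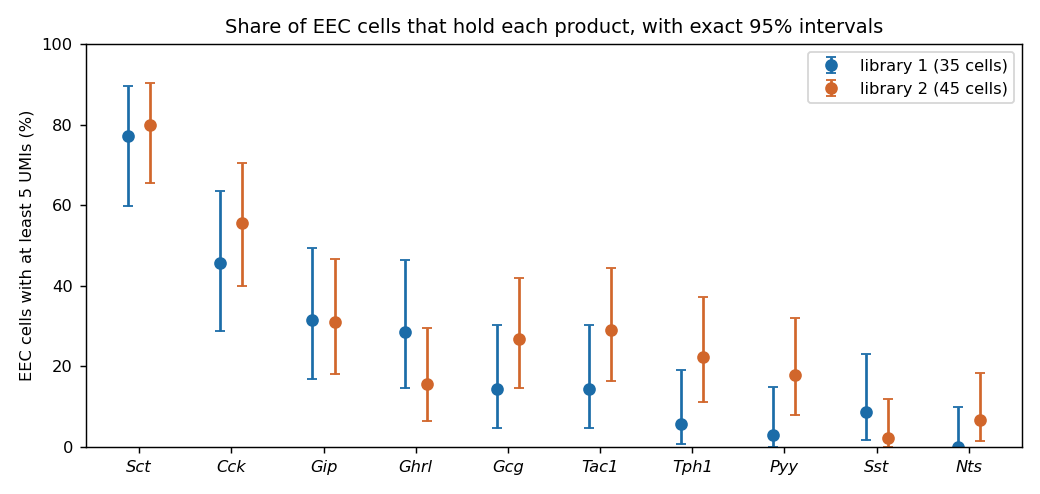
Share of EEC with at least 5 UMIs of each of 10 products, in set 1 (blue, 35 cells) and set 2 (orange, 45 cells), with exact binomial 95% intervals. Sct was held by 77.1% and 80.0% of the cells and Cck by 45.7% and 55.6%, and for every product the intervals of the sets overlap.

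Thinned to 1000 UMIs a cell, which left out 0 cells of either class, Gip kept at least 1 UMI in 28.6% of EEC against 2.96% of enterocytes of set 1, and in 31.1% of EEC against 0.41% of enterocytes of set 2. Unthinned, those shares were 21 of 35 EEC in set 1 and 16 of 45 in set 2. For Sct the thinned shares were 48.6% of EEC against 2.96% of enterocytes in set 1, and 66.7% against 1.84% in set 2. At equal depth the share with a UMI of Gip or Sct was thus higher in EEC than in enterocytes in both sets.

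The peptide genes among the 10 products followed, that is all but Tph1, were summed in each cell. They took a median of 1.8% of the UMIs of an EEC in set 1 and 6.5% in set 2, with a maximum of 37.3% and 34.0%. Most EEC held several products. In set 1, 25 of 35 cells and in set 2, 38 of 45 held at least 2 of the 10 products, and 17 and 30 cells held at least 3. Every cell that held Gcg also held Cck, 5 of 5 in set 1 and 12 of 12 in set 2, and all 17 also held Sct. Of the 9 cells that held Pyy, 9 held Cck and 8 held Gcg. All 25 cells that held Gip also held Sct, and 18 of them held Cck, but only 4 held Gcg and 2 held Ghrl. In contrast 0 cells held both Gcg and Tac1. Depth bears on such counts, since a shallow cell reaches 5 UMIs of fewer products. The clustering may have used these transcripts, and the counts are descriptions.

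**Figure D3:**
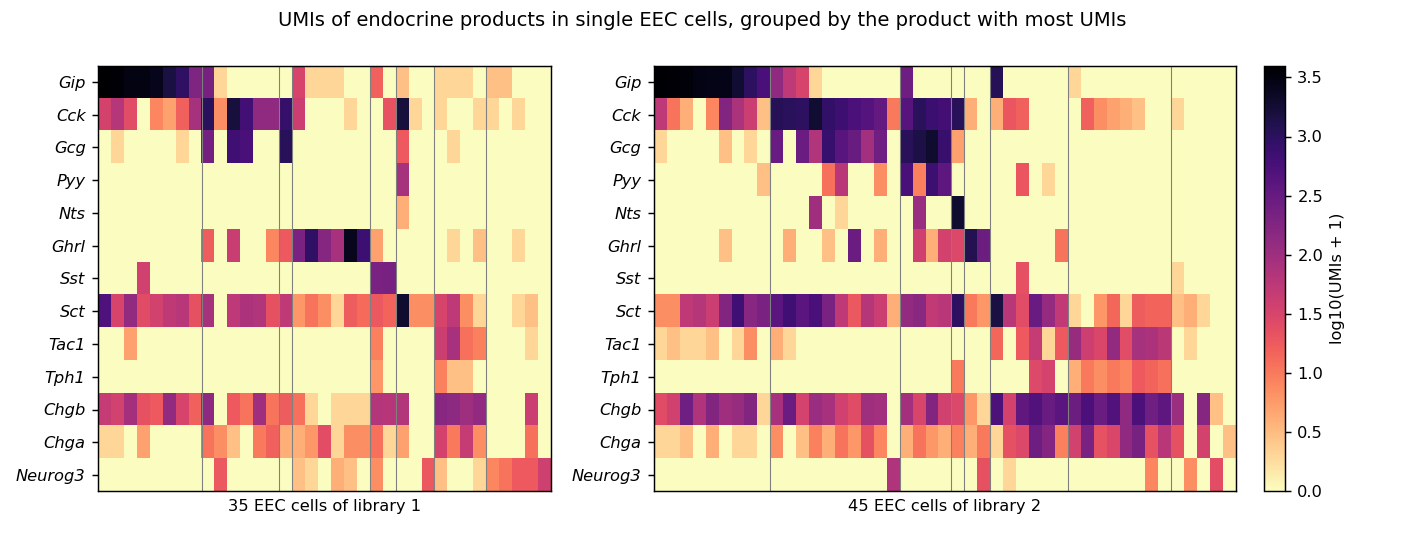
UMIs, as log10(UMIs + 1), of 10 endocrine products, Chgb, Chga and Neurog3 (rows) in each EEC (columns) of set 1 (left, 35 cells) and set 2 (right, 45 cells), with vertical lines between cells sorted by the product that has most UMIs. All 17 cells that hold Gcg also hold Cck, none of them holds Tac1, and in set 1 the 5 cells at the right edge hold Neurog3 and none of the products.

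Tph1 and Tac1 were found together in a group of cells, while other genes of the serotonin pathway were spread more widely. Tac1 stood at 285 CPM in EEC (242 to 333) against 1.67 CPM in other cells of set 1 and 809 CPM (749 to 874) against 2.4 CPM in set 2. Tph1 stood at 31.2 CPM in EEC against 0.256 CPM in set 1 and 179 CPM against 0.0424 CPM in set 2. Tph1 was held by 2 EEC in set 1 and 10 in set 2, and Tac1 and Tph1 were held together by 10 of the 12 cells with Tph1. Of the 10 pathway genes, 4 were higher in EEC in both sets (Tph1, Slc18a1, Gch1 and Ddc) and 2 were lower (Maoa and Maob). Ddc, the decarboxylase that completes serotonin synthesis, stood at 289 CPM in EEC against 62.9 CPM in other cells of set 1 and 483 CPM against 62.3 CPM in set 2. At least 1 UMI of Ddc was found in 32 of 35 EEC of set 1 and 43 of 45 of set 2, and in all 25 cells that held Gip. Such detection was not limited to EEC: 83.7% of enterocytes of set 1 and 91.8% of set 2 had at least 1 UMI of Ddc. Its level in enterocytes was 166 CPM in set 1 and 133 CPM in set 2. Gch1, which starts synthesis of the cofactor of Tph1, stood at 162 CPM in EEC against 8.8 CPM in set 1 and 239 CPM against 15.7 CPM in set 2. Maoa, which breaks serotonin down, stood at 71.7 CPM in EEC against 307 CPM in set 1 and 108 CPM against 348 CPM in set 2. Maoa stood at 851 CPM in enterocytes of set 1 and 725 CPM in those of set 2. Against secretory progenitors and goblet cells neither Maoa nor Maob was past the threshold. Maoa was higher in EEC than in Paneth cells, as were 58.1% of all genes compared with that class. With median-of-ratios scaling Slc18a1, the vesicular monoamine transporter, was no longer past the 2-fold threshold.

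Granins and granule cargo are the proteins packed with the hormones. Of 9 listed genes, 8 were compared and 8 were higher in EEC, with a median log2 ratio of 4.46. Scg2 (secretogranin) stood at 131 CPM in EEC against 0.0855 CPM in other cells of set 1 and 452 CPM against 0.0212 CPM in set 2. Scgn, secretagogin, a calcium sensor, stood at 300 CPM in EEC against 0.47 CPM in set 1 and 272 CPM against 0.0636 CPM in set 2. Of 6 processing enzymes, 4 were compared and 3 were higher in EEC (Pam, Cpe and Pcsk1). Cpe, which trims basic residues from cut prohormones, stood at 548 CPM in EEC against 0.598 CPM in set 1 and 908 CPM against 0.233 CPM in set 2. Pcsk1, the convertase that cuts prohormones, stood at 55.1 CPM in EEC against 1.11 CPM in set 1 and 188 CPM against 2.31 CPM in set 2, while Pcsk2 held 0 UMIs in EEC.

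Of 29 listed endocrine transcription factors, 25 were compared and 22 were higher in EEC in both sets, and 25 reached 10 CPM in EEC of both sets. Isl1, which acts in several hormone lineages, stood at 542 CPM in EEC (482 to 608) against 0.513 CPM in other cells of set 1 and 424 CPM (380 to 471) against 0.0848 CPM in set 2. Insm1 stood at 254 CPM in EEC against 0.983 CPM in set 1 and 303 CPM against 0.488 CPM in set 2. Pax6 stood at 187 CPM in EEC against 0.47 CPM in set 1 and 209 CPM against 0.0848 CPM in set 2. Sox4 was also present in other classes: it stood at 450 CPM in EEC of set 1 and 377 CPM in set 2, against 207 and 368 CPM in tuft cells and 130 and 213 CPM in stem cells. Foxa2 was past the threshold only without median-of-ratios scaling.

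Neurog3, the switch of the lineage, was held by 8 EEC in set 1 and 5 in set 2, and stood at 259 CPM in EEC (218 to 306) against 0.983 CPM in set 1 and 158 CPM (132 to 188) against 0.869 CPM in set 2. Of these 13 cells, 5 in set 1 and 2 in set 2 held none of the 10 products, and 2 and 3 held a product other than Sct. Chgb was at 0 UMIs in 6 of the 8 cells of set 1 and 2 of the 5 cells of set 2. In the cells that held Neurog3, Sox4 stood at 1533 CPM in set 1 and 1079 CPM in set 2, against 450 and 377 CPM in all EEC. Scg2 and Etv1 held 0 UMIs in these cells in both sets. The EEC cluster thus included cells with Neurog3 and little hormone and cells with much hormone and little Neurog3, but this split was not complete. In set 2 a cell with 21 Neurog3 UMIs held 270 Ghrl UMIs, and only 2 of the 5 cells without a product held Neurog3.

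Cells that held different products differed in other genes too, and these subsets overlap since 1 cell can hold several products. In cells that held Gcg, Etv1 stood at 586 CPM in set 1 and 409 CPM in set 2, and the fatty acid receptor gene Ffar1 stood at 419 and 448 CPM. In cells that held Tac1, Ffar1 stood at 0 CPM in set 1 and 18.3 CPM in set 2, and Etv1 at 0 and 49.5 CPM. Lmx1a, a factor of enterochromaffin cells, stood at 67.2 CPM in set 1 and 52.2 CPM in set 2 in cells that held Tac1, against 0 CPM in cells that held Gcg or Ghrl. Isl1 was at 0 UMIs in 4 of 5 cells that held Tac1 in set 1 and 7 of 13 in set 2, while it was found in all 17 cells that held Gcg.

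Of the 6 subsets plotted, cells that held Tac1 had the most Chga, 1007 CPM in set 1 and 2686 CPM in set 2, and the most Chgb, 5728 and 12571 CPM. In cells that held Gip, Chga stood at 144 CPM in set 1 and 101 CPM in set 2. Fabp5, a fatty acid binding protein, stood at 4672 CPM in set 1 and 15242 CPM in set 2 in cells that held Gip, and at 19.2 and 2201 CPM in cells that held Tac1. These values come from 5 to 14 cells a subset in a set.

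**Figure D4:**
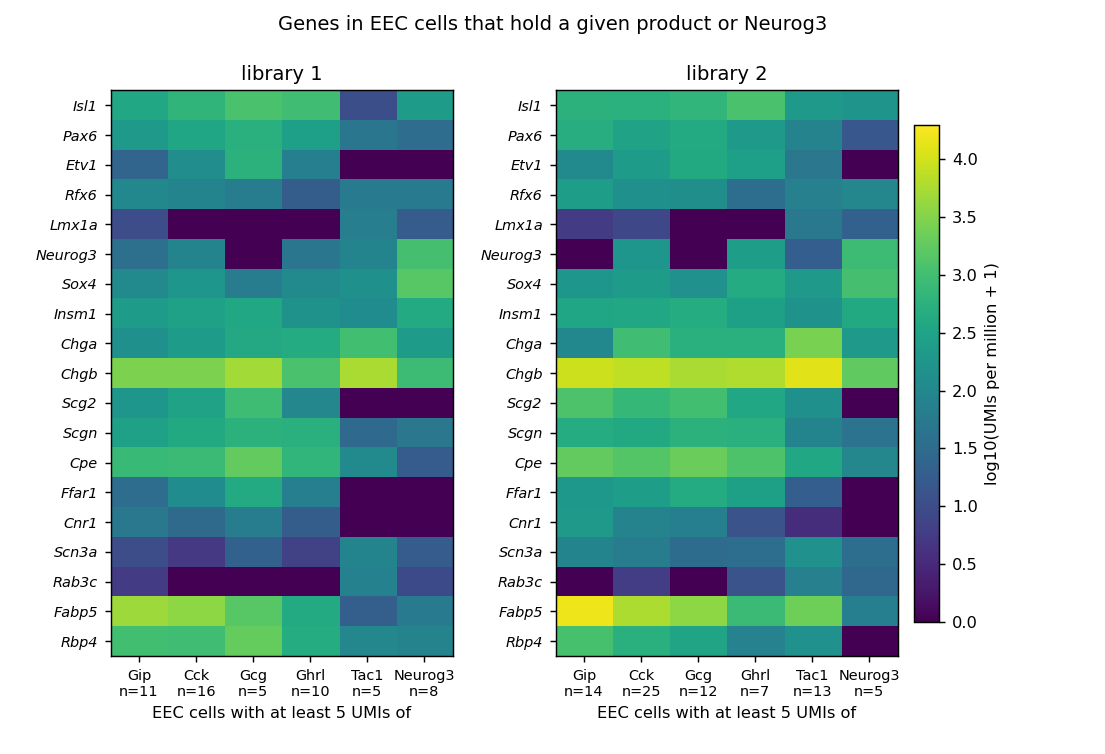
Level of 19 genes, as log10(CPM + 1), in EEC that hold at least 5 UMIs of Gip, Cck, Gcg, Ghrl, Tac1 or Neurog3, in set 1 (left) and set 2 (right), with the number of cells under each column. Etv1 and Ffar1 are lower in the Tac1 column than in the Gcg column, Lmx1a is at 0 in the Gcg and Ghrl columns, and Sox4 is highest in the Neurog3 column.

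Receptors for nutrients and signals sit upstream of hormone release. Of 25 listed receptors, 10 were compared and 4 were higher in EEC in both sets: Ffar1, Ffar2, Ffar4 and Cnr1. Ffar1 stood at 53.3 CPM in EEC against 0.0427 CPM in other cells of set 1 and 128 CPM against 0.0424 CPM in set 2. Ffar2, a receptor for short-chain fatty acids, stood at 64.3 CPM in EEC against 4.19 CPM in set 1 and 115 CPM against 9.33 CPM in set 2. Gpr119, Galr1 and Ptger3 held 8, 6 and 7 UMIs in EEC of set 1 and 17, 36 and 15 in set 2, against 0 to 0.0427 CPM in other cells. The glucose carrier Slc5a1 was not past the threshold, at 123 CPM in EEC against 221 CPM in set 1 and 139 CPM against 197 CPM in set 2. Enterocytes stood at 698 and 512 CPM of Slc5a1. Against other secretory classes Slc5a1 was higher in EEC in both sets. The log2 ratios were 1.16 and 1.52 against secretory progenitors and 1.59 and 1.63 against goblet cells. Against Paneth cells they were 2.68 and 2.69, where the median over all genes was 1.35. With median-of-ratios scaling Ffar4 was not past the threshold against all other cells. Against goblet cells neither Ffar2 nor Ffar4 was past the threshold in both sets: Ffar4 stood at 33.1 CPM in EEC against 51.1 CPM in goblet cells of set 1 and 49.3 CPM against 39.7 CPM in set 2, and Ffar2 had log2 ratios of 0.92 and 1.34.

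Of 20 listed channel genes, 9 were compared and 5 were higher. Cacna1a, a voltage-gated calcium channel subunit, stood at 88.2 CPM in EEC against 2.56 CPM in other cells of set 1 and 272 CPM against 4.39 CPM in set 2. Scn3a, a sodium channel subunit, stood at 18.4 CPM in EEC against 0.128 CPM in set 1 and 98.5 CPM against 0.127 CPM in set 2, and in cells that held Tac1 at 86.4 and 151 CPM. Piezo2, known from enterochromaffin cells, held 0 UMIs in EEC of both sets. Of 29 genes listed for vesicle docking and exocytosis, 21 were compared and 14 were higher, or 10 with median-of-ratios scaling. The list also holds Bex2, Stmn2 and Celf3, which are not exocytosis genes, and Bex2 and Celf3 are among those counted as higher. Cplx2, complexin, which acts in vesicle fusion, stood at 127 CPM in EEC against 0.555 CPM in other cells of set 1 and 123 CPM against 0.53 CPM in set 2.

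Other genes that ranked high by the smaller ratio of the sets were Fabp5, Fam183b, Rbp4, Hmgn3, Gfra3, Cdkn1c, Aplp1 and Myl7. Fabp5 stood at 1990 CPM in EEC against 10.1 CPM in other cells of set 1 and 4069 CPM against 12.1 CPM in set 2. Cdkn1c, a cell cycle inhibitor, stood at 226 CPM in EEC against 1.07 CPM in set 1 and 627 CPM against 1.74 CPM in set 2. Gfra3, a co-receptor of the artemin signal, stood at 272 CPM in EEC against 0.299 CPM in set 1 and 212 CPM against 0.254 CPM in set 2. The 15 lowest genes by the larger ratio included the alpha-defensins Defa21, Defa24 and Defa26 and the goblet lectin Zg16. Defa24, a Paneth cell product, stood at 2470 CPM in EEC against 73764 CPM in set 1 and 806 CPM against 25207 CPM in set 2, and reads of near-identical defensin genes may be split between them. Zg16 stood at 149 CPM in EEC against 3818 CPM in set 1 and 195 CPM against 10490 CPM in set 2.

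Secretory progenitors, goblet cells and Paneth cells are other cells of the secretory lineage. Against secretory progenitors, 377 of 9598 genes were at least 2-fold higher in EEC in both sets (3.93%) and 95 were lower (0.99%). Against goblet cells, 683 of 9240 were higher (7.39%) and 233 lower (2.52%). Against Paneth cells, 5072 of 8723 were higher (58.1%) and 50 lower (0.573%), with a median log2 ratio of 1.35 over all genes. In Paneth cells the 8 listed Paneth markers alone made up 497735 CPM in set 1 and 422852 CPM in set 2, which leaves a smaller share of UMIs for other genes. Against secretory progenitors 8 of 8 granins, 3 of 4 processing enzymes, 8 of 9 hormones, 21 of 24 transcription factors, 5 of 7 receptors, 5 of 6 channels and 10 of 18 genes of the exocytosis list (Bex2 and Celf3 included) were higher in EEC.

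The Notch and secretory specification list holds genes of Notch signalling and of the choice among secretory fates. Of 9 genes compared with secretory progenitors, 4 were lower in EEC in both sets and 0 were higher. Against goblet cells 3 of 8 were lower. Against Paneth cells, where 58.1% of all genes were higher in EEC, 0 of 8 were lower and 2 were higher. Against secretory progenitors Atoh1, which commits cells to the secretory fate, had log2 ratios of -1.97 in set 1 and -2.63 in set 2, and Spdef, a goblet and Paneth factor, -1.97 and -3.0. Dll1, a Notch ligand, had -1.0 and -2.3, and Gfi1 had -1.37 and -1.07. Against all other annotated cells none of the 9 was past the threshold. Sct was not limited to EEC: it stood at 6047 CPM in EEC of set 1 against 501 CPM in goblet cells and 229 CPM in secretory progenitors, and at 8999 CPM in EEC of set 2 against 282 and 197 CPM in those classes.

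**Figure D5:**
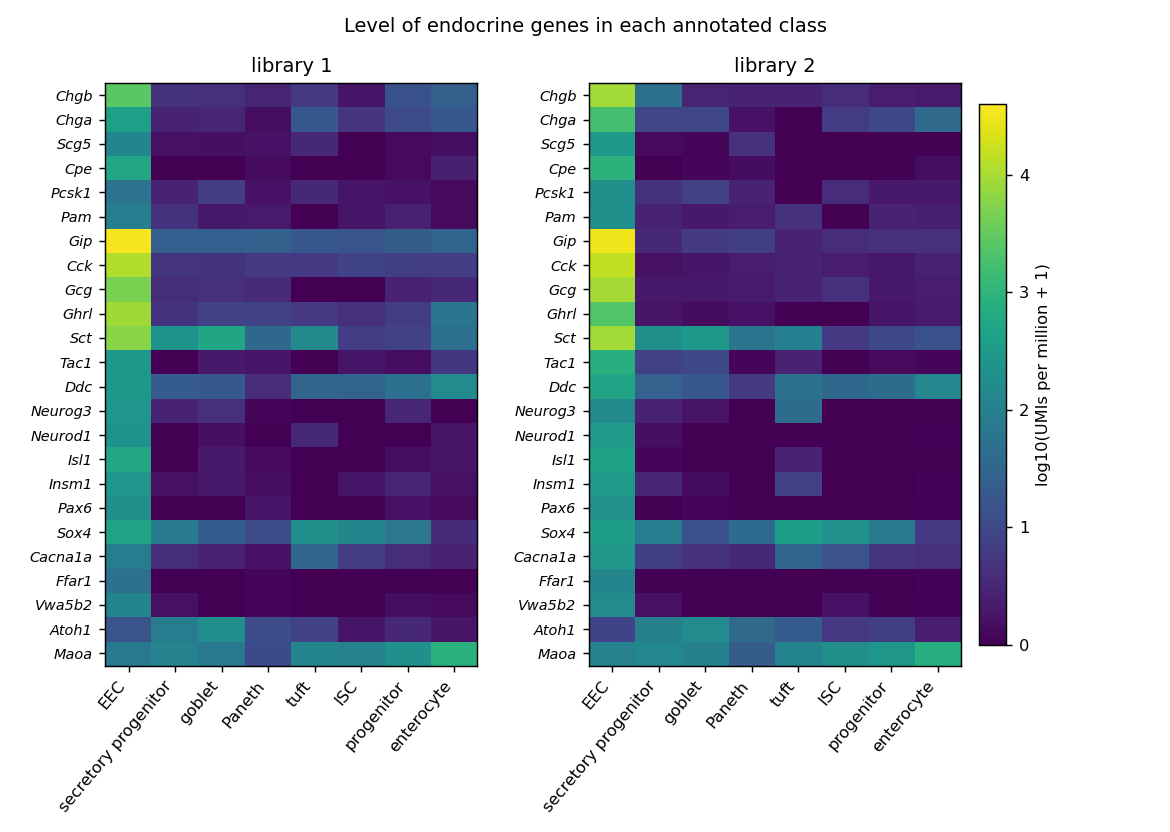
Level of 24 genes, as log10(CPM + 1), in EEC (leftmost column) and the 7 other annotated classes of set 1 (left) and set 2 (right). Endocrine genes are brightest in the EEC column, Sct is also visible in secretory progenitor, goblet and tuft cells, Sox4 in tuft and stem cells, and Maoa is brightest in enterocytes.

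Host genes of miRNAs were also read in these cells, though the miRNAs themselves were not. Of 8 listed hosts, 4 were compared and 2 were higher in EEC in both sets. Vwa5b2 stood at 118 CPM in EEC (90.6 to 150) against 0.299 CPM in other cells of set 1 and 163 CPM (136 to 193) against 0.17 CPM in set 2. Its RefSeq gene on GRCm38.p6 lies at chr16:20589428-20605378 and holds miR-1224 at chr16:20604452-20604536 on the plus strand. Ptprn2, a granule membrane protein, holds miR-153 and stood at 53.3 CPM in EEC against 1.58 CPM in set 1 and 142 CPM against 4.11 CPM in set 2. The mature miRNAs of these hosts are shown, 5′ to 3′, because their hosts are the listed ones past the threshold, with the seed (bases 2 to 8) in capitals.
mmu-miR-1224-5p: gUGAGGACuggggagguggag
mmu-miR-153-3p: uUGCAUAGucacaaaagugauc
Hnrnpk, which holds a copy of miR-7, stood at 447 CPM in EEC against 221 CPM in set 1 and 488 CPM against 303 CPM in set 2 and was not past the threshold. Pde2a, which holds miR-139, was not past it either, at 18.4 CPM in EEC against 8.29 CPM in set 1 and 17.2 CPM against 13.4 CPM in set 2. Pde2a was lower in EEC than in goblet cells, with log2 ratios of -1.08 and -1.2. Against Paneth cells its ratios were 1.32 and 1.07, below the median of 1.35 over all genes, 58.1% of which were higher in EEC there. In tuft cells it stood at 96.4 and 80.8 CPM. Meg3, Mirg and Trpm3 held 0 UMIs in EEC.

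Some EEC carried transcripts of the cell cycle. At least 5 UMIs of Mki67 or Top2a were found in 6 EEC of set 1 and 5 of set 2. All 11 held a product, as did all but 5 of 35 EEC in set 1 and 5 of 45 in set 2. The 11 cells held 17699 to 37861 UMIs in set 1 and 28738 to 96122 UMIs in set 2. The EEC without such counts had a median of 10390 UMIs in set 1 and 12224 in set 2. Of the cells above 20000 UMIs, 4 of 9 in set 1 and 5 of 7 in set 2 were among the 11. The cut of 5 UMIs is not scaled by depth, so deeper cells pass it more easily by construction. The higher depth of these cells is therefore not read as a trait of cycling EEC. Whether any of these barcodes held more than 1 cell was not tested. Without the EEC above 20000 UMIs, 850 genes were higher and 347 lower than in other cells, and 501 of the 522 and 205 of the 221 were among them.

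Chga was also found outside EEC with another balance. It had at least 1 UMI in 65.7% of EEC against 67 of 406 enterocytes (16.5%) in set 1, and in 84.4% of EEC against 251 of 488 enterocytes (51.4%) in set 2. For Chgb the shares were 77.1% of EEC against 5.42% of enterocytes in set 1 and 93.3% against 3.28% in set 2. The ratio of Chga to Chgb UMIs was 0.15 in EEC and 0.764 in enterocytes of set 1, where 2 enterocytes with 5 or more Chgb UMIs carried most of the Chgb. Without these 2 cells the ratio in enterocytes of set 1 was 5.38. In set 2 it was 0.187 in EEC and 34.6 in enterocytes. Thinned to 8000 UMIs a cell, which left out 3 EEC and 17 enterocytes of set 2, Chga was found in 62.9% of EEC and 10.6% of enterocytes of set 1, and in 78.6% of EEC and 22.7% of enterocytes of set 2, against 2.82% of stem cells and 0% of Paneth cells in set 2. Enterocytes thus held more Chga per Chgb than EEC did in each set, most of all in set 2. This balance was not limited to enterocytes. Progenitors held 66 Chga and 82 Chgb UMIs in set 1 and 110 and 15 in set 2. Stem cells held 5 and 1 in set 1 and 8 and 4 in set 2.

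Single cells outside the class also carried endocrine products. In set 1, enterocytes included a count of 886 Sst UMIs and a count of 355 Ghrl UMIs in a cell. In set 2, a secretory progenitor held 313 Chgb UMIs and a tuft cell held 24 Neurog3 UMIs. Gip was at 5 or more UMIs in 7 other annotated cells of set 1, all Paneth cells with at most 7 UMIs, and in 0 of set 2. As a level, Gip was no higher in Paneth cells of set 1 (25.3 CPM) than in enterocytes (28.3 CPM). Paneth cells were deeper, with a median of 73555 UMIs against 15164 in enterocytes, so they reach 5 UMIs more easily.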

How the data were processed

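The 2 single-cell libraries were read as gene by barcode matrices of UMI counts that the authors deposited, with the authors' table of cluster names. The genome build is mm9 per the submitters' processing notes, and the matrix header of set 2 names software version 3.0.1. How the cells were filtered and clustered is not given in the sources used here. Cell types were taken from the authors' annotation as it stands, no doublet caller was run, and barcodes without annotation entered no class. Counts were summed over the cells of a class in each set and scaled to CPM.

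A gene was compared where EEC and the reference held at least 10 UMIs in each set. Ratios are log2 of CPM plus 10 in EEC over CPM plus 10 in the reference, and a gene counts as higher or lower at 2-fold or more in the same direction in both sets. Intervals are exact Poisson for levels and exact binomial (Clopper-Pearson) for shares, at 95%. No test was made. Named genes are the members of 10 lists, the 25 genes with the largest smaller ratio of the sets, and the 15 with the lowest larger ratio among genes of at least 50 CPM in other cells. The members, lists and markers were chosen with earlier results of these data known. Thinning draws 1000 or 8000 UMIs a cell. Other choices tried were other denominators, pseudocounts, minimum counts, scalings, UMI thresholds and subsets of cells. The scripts were tested on simulated data. Python 3.11.15, numpy 2.4.6, scipy 1.17.1, pandas 2.3.3 and matplotlib 3.10.9 were used. Sequences and gene positions are from RefSeq on GRCm38.p6, and no coordinates were moved between builds.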

Additional observations from a re-analysis of the deposited data

Results flagged for a closer look

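Endocrine transcripts were also found in the 6241 barcodes of set 2 that carry no annotation and that no comparison used. Chgb stood at 27.0 CPM in these barcodes, against 7.99 CPM in annotated cells other than EEC, and Gip stood at 51.7 CPM, against 3.69 CPM. At least 5 UMIs of Gip were found in 4 of these barcodes, with a maximum of 481 UMIs, and at least 5 UMIs of Chgb in 9, with a maximum of 155 UMIs. Mitochondrial transcripts took 35.9% of the UMIs of these barcodes, against 7.28% in EEC of the same set. The part of cell quality in these values was not tested.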

How the results depend on the processing

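No paired analysis was possible because no test was made: each ratio is already taken within a library, and the numbers 1 and 2 name the libraries of 1 group. No gene named for its high or low rank by ratio to other cells changed sign under the alternatives run. For some members of the lists the sign differed between the sets, so it depends on the set when a single set is used. Dll1 had log2 ratios to other cells of 0.68 in set 1 and -1.05 in set 2. P2rx4 had 0.18 in set 1 and -0.89 in set 2. With median-of-ratios scaling the balance of calls turned, with 39.8% of them higher in place of 70.3%. Over all barcodes the mean share of EEC was 1.74% in place of 3.06%. Against all other cells, genes higher numbered 861 to 1012 in a single set, by construction since agreement of the sets is then not asked for, and lower 318 to 349. With a pseudocount of 1 CPM they were 1507 and 500, with 50 CPM 115 and 86, with median-of-ratios scaling 270 and 408, and without EEC over 20000 UMIs, chosen after seeing the data, 850 and 347. With means over cells 359 were lower. Against secretory progenitors a single set gave 505 to 858 higher and 177 to 257 lower, means over cells gave 186 lower, leaving out the 10% of EEC with most UMIs 193, and those over 20000 UMIs 344. Against goblet cells a single set gave 1038 to 1552 higher and 323 to 373 lower, and against Paneth cells 58 to 81 lower.

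The mean share of EEC holding Gip was 31.3%, and 47.8% at 1 UMI, 26.2% thinned to 1000 UMIs and 29.8% thinned to 8000, a depth chosen after seeing the data. For Cck it was 50.6%, and 69.5% at 1 UMI, 57.6% at 3 UMIs and 28.1% thinned to 1000. For Sct it was 78.6%, and 91.0%, 80.8% and 65.9% at 1, 3 and 10 UMIs, and 33.3% and 66.0% thinned to 1000 and 8000. Ghrl was held by 22.1%, or 33.3% at 1 UMI and 13.0% thinned to 1000, and Tac1 by 21.6%, or 35.6% at 1 UMI and 4.76% and 12.4% thinned to 1000 and 8000. Tph1 was held by 14.0%, or 1.11% thinned to 1000. Thinning and other thresholds change these shares by construction, and for the other values the cause was not tested. Few cells, 1 library a set and unstated numbers of mice limit every value.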
